A study of Mus musculus with 2 samples.

Results

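The genes described here were 10 genes of Wnt feedback and direct β-catenin response, namely Axin2, Lef1, Tcf7, Nkd1, Nkd2, Rnf43, Znrf3, Notum, Sp5 and Lgr5. They were taken by gene name on the array, and every probe carrying 1 of these names was kept, which gave 21 probes of 56605. They were measured in mDE6, which the study describes as mouse odontogenic epithelial cells, the cells that line the forming tooth germ. One array held RNA of control cells given DMSO, the solvent, and the other held RNA of cells given CHIR99021, both for 6 h. The label of the CHIR99021 array gives a concentration of 5 mM, whereas the methods of the study give the same number in μM. The label of the control array writes the DMSO level as "0/1%". Each condition was 1 array, so no difference below has a replicate check or a p-value, and each compares these arrays and not the conditions.

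In the Wnt/β-catenin pathway, a destruction complex that contains GSK-3 marks β-catenin for degradation, and CHIR99021 inhibits GSK-3. Stabilised β-catenin enters the nucleus and binds TCF/LEF factors on DNA. Among the genes it switches on are several whose products damp the pathway again, by rebuilding the destruction complex, by binding Dishevelled, by removing Frizzled receptors from the membrane or by inactivating the Wnt ligand. In the tooth germ the pathway is active in the enamel knot, the signalling centre of the epithelium.

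A probe was called measured where Feature Extraction, the scanner's quantification program, marked its spot as well above background. All 10 genes were on the array, 9 had a probe well above background on at least 1 array, and 7 had one on both. All 7 genes measured on both arrays were higher on the CHIR99021 array, with ratios from 1.30 in Notum to 3.0 in Lef1, where 51.9% of the 13374 genes in the same range of signal had a ratio above 1. Axin2 and Nkd1 were tested through the CHIR99021 array alone, so their direction was fixed by the filter. Over all 18837 tested genes a ratio above 1 was found in 53.4%. Sp5 was well above background on neither array. Values are processed signals in intensity units before scaling, given with the signal error of Feature Extraction, which models the error within an array and is no replicate spread. Ratios are CHIR99021 over control after each array was divided by its 75th percentile, 486.7 for control and 469.17 for CHIR99021. Well above background were 49.8% of the control spots and 48.3% of the CHIR99021 spots, and 0 spots were saturated.

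The labelled cell type was set against marker genes. Of 7 epithelial markers, 4 were tested and Krt8, Cdh1 and Epcam were on neither array well above background. Trp63, a factor of stratified epithelium, gave a signal of 2306 in control and 2896 in CHIR99021-treated cells, whereas its other tested probe was well above background in control cells alone. Krt14 gave 48.5 and 54.6, and Krt5, its partner keratin of basal epithelium, was not well above background in control cells and gave 165 in treated cells, at least 7.24-fold higher, from an uneven spot. Krt18 gave 25.7 in control cells and was not well above background in treated cells. Of 10 mesenchymal markers, 9 were measured on both arrays and Lum was measured on neither.

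Among the mesenchymal markers, the collagen gene Col1a1 gave 122712 and 116216 and the intermediate filament gene Vim gave 52302 and 45883. Prrx1, a factor of limb and jaw mesenchyme, gave 14806 and 14454. The control and CHIR99021 signals of the small proteoglycan gene Dcn were 3353 and 2319, and those of the growth factor receptor genes Pdgfra and Pdgfrb were 1018 and 771, and 1811 and 1194. Twist1, Msx1 and Pax9, factors of jaw mesenchyme, had ratios of 1.55, 1.54 and 0.659. Signals before scaling were also summed over the markers measured on both arrays. From control to CHIR99021, the sum of Krt14 and Trp63, most of it 1 Trp63 probe, went from 2355 to 2951. That of the 9 mesenchymal markers, most of it Col1a1, went from 198361 to 183666. These sums compare the arrays and not the lists, since levels of different probes cannot be set against each other. Because Krt8, Cdh1 and Epcam were not measured on either array and 9 of 10 mesenchymal markers were measured on both, the cells are called by their line name below. Of 4 immune and endothelial markers, Cdh5 was well above background on neither array, and Pecam1 was so on the control array alone, with 29.9. The leukocyte gene Ptprc gave 1709 and 1764, and the macrophage gene Cd68 gave 579 and 691. The part of any of these cell types in the ratios of the 10 genes was not tested.

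**Figure D1:**
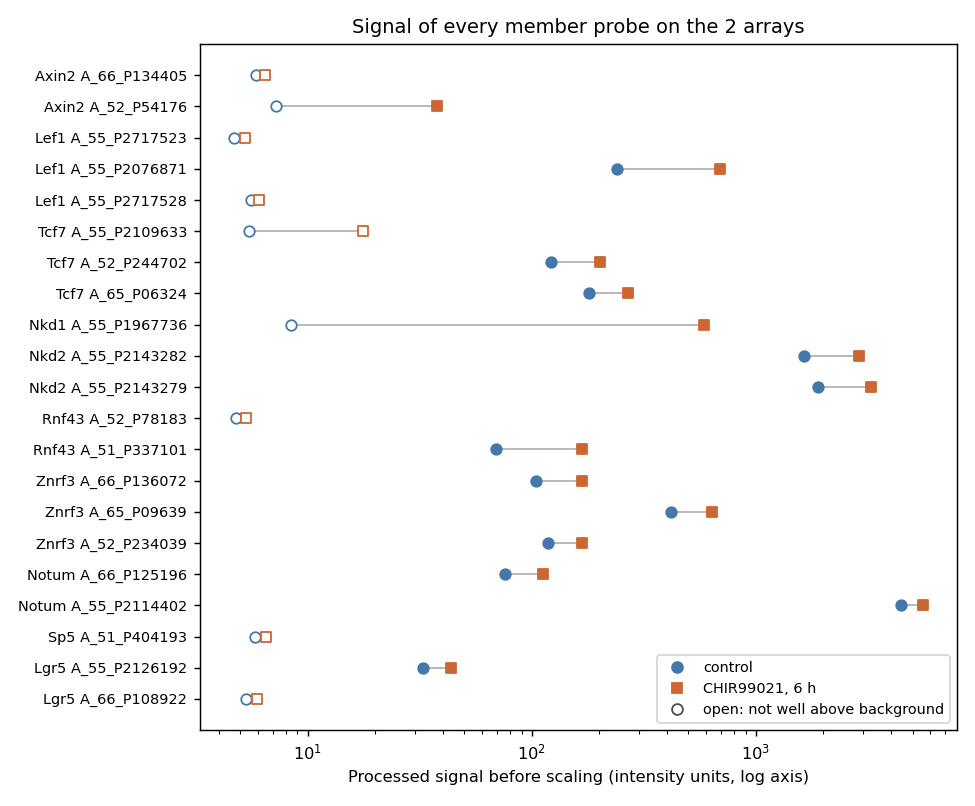
Processed signal before scaling (intensity units, log axis) of the 21 probes of the 10 genes, with circles for the control array and squares for the CHIR99021 array, and open symbols where the spot was not well above background. The 12 probes that were filled on both arrays all lay higher on the CHIR99021 array, while Nkd1 and 1 Axin2 probe were filled on the CHIR99021 array alone.

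The oligos of 3 probes are shown, because for Lef1 and Axin2 different probes of 1 gene gave different answers, and for Notum the probe with the larger ratio was the dimmer one. They are 60-base oligos, written as deposited in the array files. The Lef1 oligo is the one that gave a signal, the Axin2 oligo is the one that gave none, and the coordinates listed for the Notum oligo span 350 bases, so that it crosses a gap in the genome. The capitals used further below do not apply to them.
Lef1 A_55_P2076871, mm9 chr3:130926200-130926259, plus strand: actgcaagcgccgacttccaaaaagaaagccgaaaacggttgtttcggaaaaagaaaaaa
Axin2 A_66_P134405, mm9 chr11:108803927-108803986, plus strand: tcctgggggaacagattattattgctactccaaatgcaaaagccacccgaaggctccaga
Notum A_66_P125196, mm9 chr11:120518888-120519237, minus strand: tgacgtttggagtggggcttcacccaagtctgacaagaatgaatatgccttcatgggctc
No annotation of mm9 was used here, so the exon of each probe is not given. The position along the transcript was given by the array files, and the other Axin2 probe lay 2171 bases further towards the 3′ end.

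Promoter sequence from RefSeq on GRCm38.p6 was held for 7 of the 10 genes, in 12 windows of 250 bases before a transcription start. Znrf3, Notum and Lgr5 had no entry. The windows were searched on both strands for the TCF/LEF letters CTTTG followed by AA, AT, TA or TT. At least 1 of these was found in 2 of the 12 windows and in 14.8% of the 32851 windows of the whole table. The windows that held a match are shown because they belong to Lef1, the gene with the largest ratio measured on both arrays, and to Sp5, the gene without a signal. Capitals mark the matches, which are a description of the letters and not a binding site.
Sp5, GRCm38.p6 chr2:70474673-70474922, plus strand: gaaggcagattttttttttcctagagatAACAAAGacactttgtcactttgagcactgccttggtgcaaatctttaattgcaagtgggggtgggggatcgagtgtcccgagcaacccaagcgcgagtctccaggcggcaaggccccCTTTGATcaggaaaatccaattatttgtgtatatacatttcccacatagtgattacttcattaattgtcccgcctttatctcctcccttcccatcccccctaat
Lef1, start site of 1 of 4 windows, GRCm38.p6 chr3:131156044-131156293, plus strand: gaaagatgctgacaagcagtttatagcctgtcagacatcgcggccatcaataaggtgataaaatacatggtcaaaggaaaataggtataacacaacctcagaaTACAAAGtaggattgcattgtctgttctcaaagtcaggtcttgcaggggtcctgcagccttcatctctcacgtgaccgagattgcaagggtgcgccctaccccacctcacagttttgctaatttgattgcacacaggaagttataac
In the Sp5 window the matches began 222 and 104 bases before the start, the first on the minus strand and the second on the plus strand. In the Lef1 window the match began 147 bases before the start and lay on the minus strand. The other 3 windows of Lef1 and the windows of Nkd1, Tcf7, Rnf43, Axin2 and Nkd2 held none of these letters.

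Axin2 encodes the scaffold of the destruction complex that is rebuilt when the pathway is active. Its probe nearer the 3′ end, A_52_P54176 at mm9 chr11:108811980-108812039, gave 7.23 ± 5.29 in control and 37.9 ± 7.02 in CHIR99021-treated cells. The control spot was not well above background, so the ratio has only a bound, at least 1.66-fold higher. The second Axin2 probe, printed above, gave 5.90 and 6.44, on neither array well above background. The normexp background correction was tried in place of the deposited subtraction. It adds an offset of 50 to every signal, so it draws the ratios of dim spots towards 1. With normexp, the bound of Axin2 was at least 1.28-fold, which no longer placed it past 1.5-fold. Axin2 was therefore seen by 1 dim spot.

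Lef1 and Tcf7 encode HMG-box factors that carry β-catenin to DNA and are themselves targets of the pathway. The Lef1 probe printed above gave 239 ± 24.5 in control and 690 ± 69.3 in treated cells, a ratio of 3.0 and a log2 ratio of 1.58 ± 0.21 (signal error). Over 9 ways of scaling and background correction, its ratio lay between 2.48 and 3.12. The other Lef1 probes, A_55_P2717528 and A_55_P2717523, were designed on other Lef1 transcripts and were on neither array well above background, with 5.57 and 4.70 in control and 6.04 and 5.25 in treated cells. The signal of Lef1 thus came from 1 of 3 probes.

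The spot of Lef1 was even on both arrays. Evenness is the spread of the pixels over their mean, and it was 0.186 for control and 0.138 for CHIR99021, where the 99th percentile of measured spots in the earlier rows was 0.261. Of its 8 adjacent spots, 5 were measured in control cells alone, and the median of the 8 computed log2 ratios was −0.68, with a highest value of 0.33. The part of these spots in the ratio of Lef1 was not tested.

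Tcf7 was higher on the CHIR99021 array by its 2 measured probes. Probe A_65_P06324 gave 180 ± 18.9 and 270 ± 27.8, a ratio of 1.55. Probe A_52_P244702, 106 bases away, gave 122 ± 13.6 and 201 ± 21.2, a ratio of 1.71. These log2 ratios differed by 0.14, less than their signal errors of 0.21 and 0.22. The third probe, A_55_P2109633, gave 5.50 and 17.7, on neither array well above background. The ratio of Tcf7 was close to the 1.5-fold line, ranged from 1.40 to 1.62 over the scalings, and was below the line without scaling, with the percentile taken over measured probes and with normexp.

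Nkd1 and Nkd2 encode Naked cuticle proteins, which bind Dishevelled and damp the signal that it passes on. Nkd2 had 2 probes 805 bases apart on the transcript. Probe A_55_P2143279 gave 1886 ± 189 in control and 3247 ± 325 in treated cells, and probe A_55_P2143282 gave 1634 ± 164 and 2900 ± 290. Their ratios were 1.79 and 1.84, and the log2 ratios differed by 0.04, where the median difference over 3872 genes with 2 measured probes was 0.13. Of the 4 genes with several measured probes, Nkd2 was the one whose probes gave the closest ratios, over spots in different rows of the array. Of the 7 spots beside A_55_P2143279, 2 were measured in treated cells alone, and of the 7 beside A_55_P2143282, 3 were measured in control cells alone. The part of these spots in the ratios was not tested.

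Nkd1 had the least even spot of these genes. Its single probe, A_55_P1967736 at mm9 chr8:91116160-91116219, gave 8.45 ± 5.24 in control cells, not well above background, and 588 ± 59.1 in treated cells, at least 25.8-fold higher. The evenness of the CHIR99021 spot was 0.401, at the 99.5th percentile, and it was the 1 spot of these genes past the 99th percentile of 0.261. All 8 adjacent spots had a higher signal on the CHIR99021 array, and 5 of them were measured there alone. Their computed log2 ratios ran from 0.43 to 7.16, with a median of 5.48, where that of Nkd1 was 6.17. Such values from dim control spots are no bounds and have no order. With normexp the bound of Nkd1 was at least 7.76-fold. The part of the neighbouring spots in the value was not tested.

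**Figure D2:**
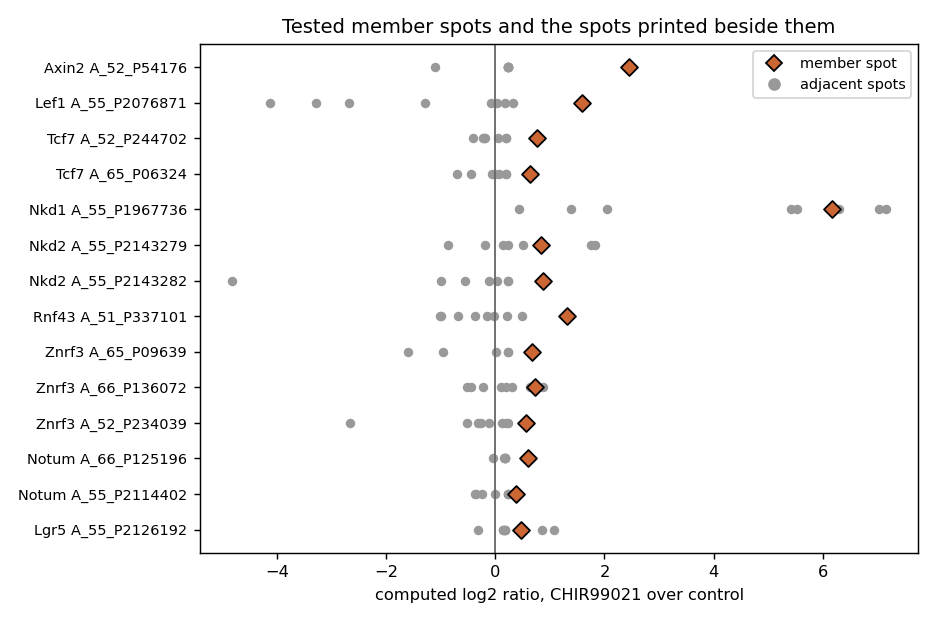
Computed log2 ratio (CHIR99021 over control, scaled signals) of the 14 tested spots of the 10 genes (diamonds) and of the spots printed beside them (grey circles). All 8 neighbours of Nkd1 lay above 0, from 0.43 to 7.16, whereas the neighbours of Lef1 reached 0.33 at most. Values of spots not well above background on 1 array are computed and are no bounds.

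Rnf43 and Znrf3 encode membrane E3 ubiquitin ligases that remove Frizzled receptors and are held back by R-spondin. The Rnf43 probe A_51_P337101 gave 69.3 ± 8.98 in control and 167 ± 17.8 in treated cells, a ratio of 2.49. The second Rnf43 probe, A_52_P78183, was designed on another transcript and gave 4.77 and 5.30, not well above background. Rnf43 ranged from 1.70 with normexp to 2.60 over the scalings, a wider range than that of Lef1. Its control signal of 69.3 was close to the normexp offset of 50.

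All 3 Znrf3 probes were measured on both arrays. Probe A_65_P09639 gave 418 ± 42.1 and 640 ± 64.3, a ratio of 1.59. Probe A_66_P136072 gave 105 ± 11.9 and 167 ± 17.9, a ratio of 1.65, and probe A_52_P234039 gave 119 ± 13.0 and 168 ± 17.8, a ratio of 1.47. The Znrf3 log2 ratios lay within 0.17 of each other, less than their signal errors of 0.21 to 0.23. Znrf3 was thus higher by every probe, close to the 1.5-fold line, which its weakest probe did not reach.

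Notum encodes a secreted carboxylesterase that strips the lipid from Wnt ligands. Probe A_55_P2114402 gave 4434 ± 443 and 5570 ± 557, a ratio of 1.30. Probe A_66_P125196, the oligo printed above, gave 76.3 ± 9.57 and 112 ± 12.8, a ratio of 1.52. The log2 ratios differed by 0.22, less than the sum of their signal errors of 0.20 and 0.25. Notum was higher by both probes, and past 1.5-fold only by the dimmer one.

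Lgr5 encodes a receptor of R-spondin and marks stem cells of several epithelia. Its probe A_55_P2126192 gave 32.7 ± 6.53 and 43.8 ± 7.56, a ratio of 1.39 that ranged from 1.13 to 1.45 over the scalings. The log2 ratio of 0.47 carried a signal error of 0.38, and the second probe, A_66_P108922, gave 5.31 and 5.94 and was not well above background. Lgr5 was measured near the floor of the arrays, where the lowest signal well above background was 23.7 for control and 26.3 for CHIR99021.

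Sp5 encodes a zinc-finger factor that is a direct target of β-catenin in several tissues. Its single probe, A_51_P404193 at mm9 chr2:70315688-70315747, gave 5.82 ± 5.83 in control and 6.50 ± 6.52 in treated cells. Neither spot was well above background, so no ratio is given, and a difference in Sp5 was not detectable at this signal.

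**Figure D3:**
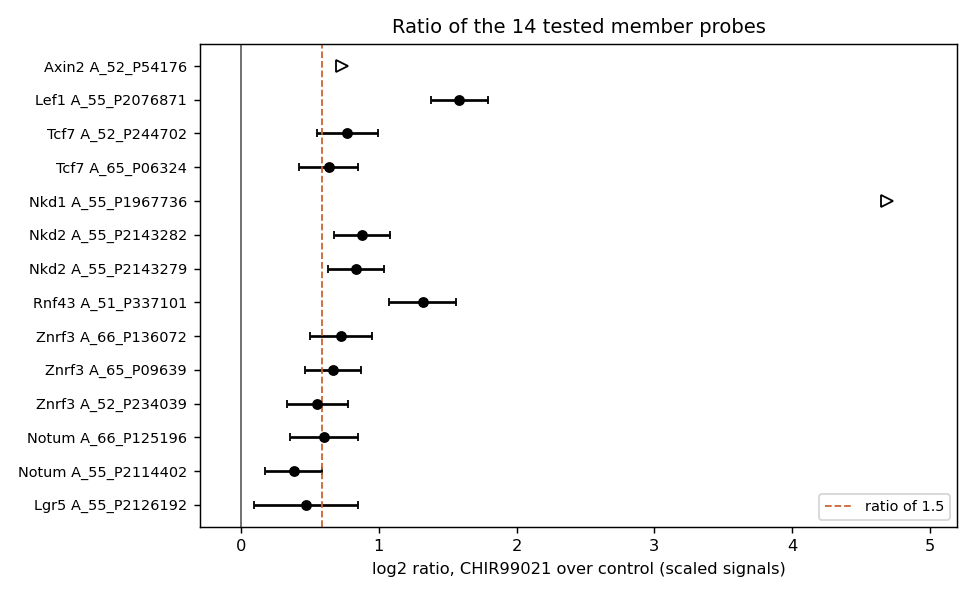
Log2 ratio (CHIR99021 over control, scaled signals) of the 14 tested probes, with the signal error as bars, open triangles for lower bounds and a dashed line at a ratio of 1.5. The 12 measured probes lay between 0.38 and 1.58, and 9 of them lay past the line.

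Past 1.5-fold, with bounds in place of ratios, were 7 of the 9 tested genes, namely Axin2, Lef1, Tcf7, Nkd1, Nkd2, Rnf43 and Znrf3. The same held for 7.46% of all 18837 tested genes, and 7.82% were lower, at a ratio of at most 0.66. None of the 9 genes was lower, and Axin2 and Nkd1 could only be higher. At the level of probes, 11 of 14 tested probes were past 1.5-fold, against 7.67% of all 28066 tested probes. Among the 7 genes measured on both arrays, 5 were past 1.5-fold, against 5.5% of the 13374 genes whose mean signal lay in the same range. Without Nkd1, 6 of the 8 remaining genes were past 1.5-fold.

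The study set a ratio and a Z-score for genes that were lower. The criteria for higher genes used here mirror these and are not the study's own. The methods of the study do not say over which probes the Z-score was taken. Here it was the distance of a log2 ratio from the mean of the 500 probes nearest in mean signal, in units of their SD. When both a ratio of 1.5 and a Z-score of 2.0 had to be reached, 4 genes were called higher. These were Nkd1 with a Z-score of 6.05, Lef1 with 4.05, Nkd2 with 2.72 and Rnf43 with 2.0. The share of all tested genes called higher in this way was 2.63%. The Z-score of Nkd1 came from its computed ratio over a dim control spot, and Nkd1 could only be called higher. Among the 7 genes measured on both arrays, 3 were called, namely Lef1, Nkd2 and Rnf43. Just under the line lay Znrf3 with 1.85 and Tcf7 with 1.45. Rnf43 lay on the line, and was not called with quantile normalization, with normexp or with a floor on low signals. With 1 mean and SD over all probes in place of the nearest probes, Axin2 and Nkd1 alone were called, both from a dim control spot.

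The median log2 ratio of the 7 genes measured on both arrays was 0.67. With the bounds of Axin2 and Nkd1 in place it was 0.73 over 9 genes, which is the bound of Axin2 itself. Over all genes measured on both arrays the median was 0.03, and 90% of them lay between −0.65 and 0.59. Ordered by log2 ratio, the 7 genes were Lef1 at 1.58, Rnf43 at 1.32, Nkd2 at 0.84, Znrf3 at 0.67, Tcf7 at 0.64, Lgr5 at 0.47 and Notum at 0.38. Lef1 and Rnf43 differed by less than the sum of their signal errors, as did each pair of neighbours from Nkd2 down to Notum. A higher ratio than that of Lef1 was found in 62 of 16886 genes measured on both arrays, 0.367%. For Rnf43 the share was 0.551%, for Nkd2 1.88%, for Znrf3 3.55% and for Tcf7 4.06%, whereas for Lgr5 and Notum it was 8.53% and 13%.

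**Figure D4:**
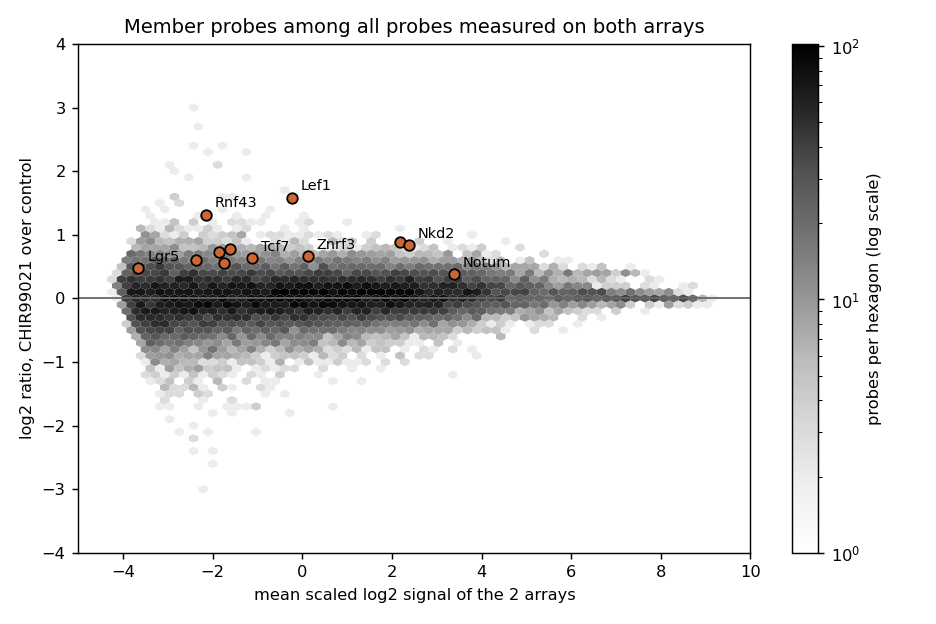
Log2 ratio (CHIR99021 over control) against the mean scaled log2 signal of the arrays, for all probes measured on both arrays (grey hexagons, shaded by their number on a log scale) and the 12 measured probes of the 10 genes (orange). Every orange point lay above 0, and Lef1, Rnf43 and Nkd2 lay at the upper edge of the cloud at their signal.

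Of the 14 tested spots of these genes, 9 were printed in later rows, against 52.1% of all tested probes. Of the 5 probes in the earlier rows, 4 were past 1.5-fold, namely those of Tcf7, Znrf3 and Notum, and the fifth was that of Lgr5. Over all tested probes, 5.21% were past 1.5-fold in the earlier rows and 9.93% in the later rows, where 7 of the 9 probes of these genes were. The tested probes of Axin2, Lef1, Nkd1, Nkd2 and Rnf43 were all printed in later rows, while the probes of Axin2, Lef1 and Rnf43 in the earlier rows were not well above background. Hence none of the 4 genes that met both criteria was measured in the earlier rows.

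Other genes of the pathway were read from a pair of lists. The first held 28 genes reported as Wnt targets in other tissues, of which 19 were tested. Of these, 6 were past 1.5-fold higher, against 7.46% of all tested genes, and 2 were lower, against 7.82%. Among the 17 genes measured on both arrays, 5 were higher, and the median log2 ratio was 0.24. The other tested genes of this list, Nrcam among them, were tested through the CHIR99021 array alone and could only be higher. With the probe of lowest ratio for each gene, 4 of the 19 were higher. Fosl1, an AP-1 factor, had a ratio of 2.61, and Apcdd1, a membrane inhibitor of Wnt signalling, had 2.19. The angiogenic factor gene Vegfa had 1.73, the TNF receptor family gene Tnfrsf19 had 1.65 by its brighter probe and 1.40 by the other, and the nuclear receptor gene Ppard had 1.53. Nrcam, a cell adhesion gene, was not well above background in control cells and was at least 3.40-fold higher. Both criteria were met in the higher direction by Apcdd1, Fosl1 and Vegfa, against 2.63% of all tested genes, and the probes of Vegfa did not give 1 answer, with ratios from 0.879 to 1.79 over 4 probes.

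Lower in this list were Id2, a helix-loop-helix inhibitor, at a ratio of 0.308 over signals of 1028 and 305, and the Notch ligand gene Jag1 at 0.650. Both Id2 probes were low, with ratios of 0.308 and 0.331, and Id2 alone in this list met both criteria in the lower direction, against 3.22% of all tested genes. The cell cycle gene Ccnd1 had a ratio of 1.18 over signals of 1563 and 1775. Dkk1, Ascl2, Cdx1, Cdx2, T, Fgf4, Fgf20, Edar and Mmp7 were on neither array well above background. Of the 17 genes of this list measured on both arrays, 11 had a ratio above 1, against 55.1% of all 16886 genes measured on both arrays.

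The second list held 37 genes of the machinery, the receptors, the destruction complex and the nuclear partners, of which 35 were tested, all measured on both arrays. Their median log2 ratio was 0.00, with 3 of 35 past 1.5-fold higher and 4 lower, against 7.46% and 7.82% of all tested genes. Ctnnb1, which encodes β-catenin itself, gave 2927 and 2824, a ratio of 1.00, although its 3 probes ran from 0.772 to 1.1. Higher were the Frizzled receptor genes Fzd7 at 1.57 and Fzd9 at 1.63 and the co-repressor gene Tle4 at 1.52, whose second probe was well above background in control cells alone. With normexp, 0 genes of the machinery were past 1.5-fold higher.

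Lower were Fzd4 at a ratio of 0.364, Fzd8 at 0.659, Fzd3 at 0.199 and Tcf7l1 at 0.484. Fzd4 was low by both of its probes, at 0.364 and 0.390, and the control spot of Fzd3 was uneven, at 0.335. Tcf7l1 encodes the TCF factor that mainly represses, and its single probe gave 384 and 179, while Tcf7l2 gave 1042 and 1107, a ratio of 1.1, the lowest of its 4 probes, which ran up to 1.60. The R-spondin receptor gene Lgr4 had a ratio of 0.871. Both criteria were met by 0 genes of the machinery in the higher direction and by Fzd3, Fzd4 and Tcf7l1 in the lower, against 3.22% of all tested genes.

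**Figure D5:**
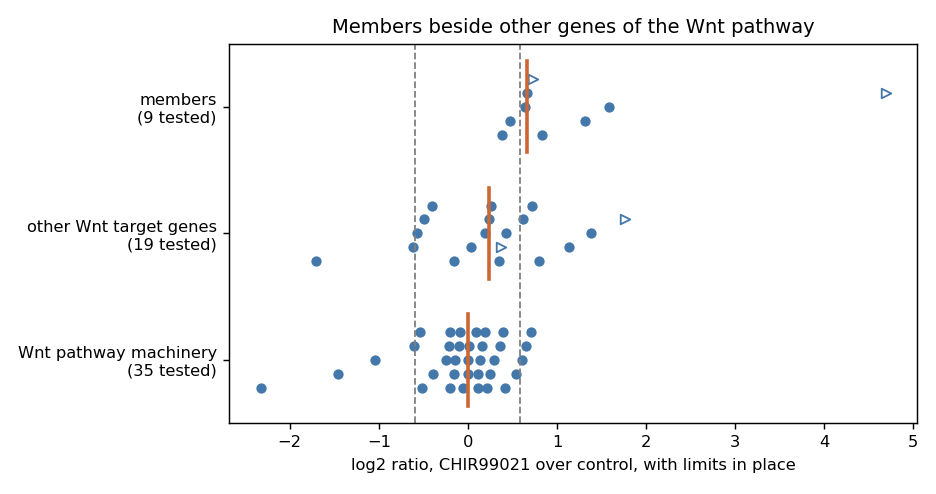
Log2 ratio (CHIR99021 over control, with bounds in place) of the tested genes of the 3 lists, with filled circles for genes measured on both arrays, open triangles for bounds, dashed lines at ratios of 1.5 and 0.66 and an orange bar at the median of the filled circles. These medians were 0.67 for the feedback genes, 0.24 for the other targets and 0.00 for the machinery.

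The 5 genes whose log2 ratio was nearest to that of Lef1, among genes measured on both arrays with a mean signal within 2-fold of it, were Ccl20, an unnamed lincRNA, Elmo3, Gm2511 and Srgap1. Ccl20, a chemokine gene, gave 161 and 473, a ratio of 3.05. The ratios of the lincRNA, Elmo3, Gm2511 and Srgap1 were 2.80, 3.21, 2.79 and 3.24. The likeness was the distance between log2 ratios of a single pair of arrays, and it ran from 0.03 for Ccl20 to 0.11 for Srgap1.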

How the data were processed

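Total RNA of mDE6 cells was labelled with Cy3 and hybridised to 1-colour Agilent arrays by the authors, who read the spots with Feature Extraction, version 10.7.1.1 in the file headers and 9.5.1.1 in the submitters' processing notes. The methods name a human array, whereas the headers give a mouse design on mm9, whose names were used. The deposited intensity is background-subtracted spot brightness, not normalized between arrays; the authors' normalized intensity table served as an alternative.

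Control spots and outliers were left out, spots of a probe were averaged, and log2 values were centred on each array's 75th percentile (Python 3.11.15, numpy 2.4.6, pandas 2.3.3; figures with matplotlib 3.10.9). A gene was read from its tested probe of highest mean signal. Where 1 array was not well above background, the dim value was replaced by the higher of itself and the lowest signal well above background there. Alternatives used limma 3.58.1 in R 4.3.3, with an offset of 50 for normexp. The criteria were run on simulated data with normal noise and changes larger than 1.5-fold, so changes near that line were not covered.

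The members and gene lists were chosen with earlier results of these data known. One gene of the lists besides the members is not reported here and was left out of their counts. Named were all members with every probe, listed genes past the fold, Ccnd1, Ctnnb1, Tcf7l1, Tcf7l2 and Lgr4, the 5 genes nearest to Lef1 and the markers. The array's accession matched RefSeq under the same symbol for 16 of 21 probes. With 1 array per condition, precision is limited by the number of arrays.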

Additional observations from a re-analysis of the deposited data

How the results depend on the processing

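No paired analysis was possible because control and CHIR99021 cells had a single array each, and leaving out a replicate was impossible for the same reason. All 116 values of the 7 members measured on both arrays under 17 alternative settings were above 0, while the sign of Axin2 and Nkd1 was fixed by the filter. Members past 1.5-fold numbered 7, and 3 in the earlier rows alone, where 4 were tested, and 5 to 8 under the other settings. Members meeting both criteria numbered 4, against 0 in the earlier rows, 2 with 1 mean and SD for the Z-score and 7 by the ratio alone. Under the other settings they numbered 3 to 5. Nkd1 was not among them over probes measured on both arrays, without uneven spots or without probes beside changed spots. The members' median log2 ratio with bounds in place, 0.73, is the bound of Axin2. It was 0.68 with the percentile over detected probes, with cyclic loess and without scaling, 0.76 with median scaling, 0.77 with quantile normalization, in the authors' table and with the highest probe, 0.79 with spike-ins, 0.59 with normexp, 0.67 over probes measured on both arrays, 0.70 without the filter, without uneven spots and, chosen after seeing the data, without 658 probes beside changed spots, and 0.62 in the earlier rows.

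Other targets past 1.5-fold higher numbered 6, against 3 in the earlier rows, and those lower 2, against 1 there, with median or spike-in scaling, normexp and the highest probe. Machinery genes higher numbered 3, against 0 with normexp or in the earlier rows and 5 with the highest probe, and those lower 4, against 7 with the lowest probe. Of all probes, 659 met both criteria in the higher direction, against 1031 without the filter, 260 in the earlier rows, 1265 with median and MAD and 2312 by the ratio alone. Past 1.5-fold higher were 2152, against 1062 with normexp, 1375 measured on both arrays, 4884 without the filter and 700 in the earlier rows. The cause of these differences was not tested. No scaling moved the median of all probes by over 0.1 on the log2 scale. Spots printed about 10 times had a median SD of 0.03 (log2) over 264 probes. Of these, 260 had signals of 1000 or more, 1 had a signal of 100 to 400, with 0.09, and 3 had signals under 100, with 0.22. The 0.03 thus describes bright spots, and the signals of Lef1, Tcf7 and Znrf3 lay below 1000. Axin2 and Lgr5 had signals under 100 on both arrays, and Nkd1, Rnf43 and the dimmer Notum probe on the control array.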
